A study of Mus musculus with 6 samples.

Results

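The heat shock proteins and chaperones described here are 50 of the 8973 named genes measured in a comparison of female with male mouse blastocysts. They were chosen by name. A probe entered if its single platform symbol was that of a small heat shock protein (Hspb), an Hsp70 or Hsp110 protein (Hspa, Hsph), the mitochondrial chaperonin or its cofactor (Hspd, Hspe), a J-domain protein (Dnaja, Dnajb, Dnajc) or a subunit of the cytosolic chaperonin (Cct genes and Tcp1). This gave 67 of 21446 features, with 37 genes on 1 probe and 13 on several, whose values were averaged. By family there were 4 small heat shock genes, 9 Hsp70 and Hsp110 genes, 2 mitochondrial chaperonin genes, 7 cytosolic chaperonin genes and 28 J-domain genes, the last made up of 2 of type A, 9 of type B and 17 of type C. The Hsp90 genes do not match these symbol patterns, so the 3 measured of 4 listed (Hsp90aa1, Hsp90b1 and Trap1) are given for comparison and not counted among the 50. None of the 50 genes lies on a sex chromosome. Family members without a single-symbol probe, such as Cct8 and the inducible Hsp70 genes Hspa1a and Hspa1b, were not analysed here.

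Whole embryos at E3.5 were separated by sex, and RNA from pools of over 200 female or male blastocysts was hybridised together on 2-colour arrays. Each of 3 independent preparations was hybridised in both dye orientations, which gave 3 arrays with female RNA in Cy5 and 3 with female RNA in Cy3. Both sexes came from the same crosses: B6C3F1 dams of 8 weeks, given gonadotropins to induce ovulation, were mated with XGFPY sires, and 4-cell embryos were cultured in kSOM for 38 h without further treatment. A sire's X chromosome passes to daughters alone, so the transgene named in the sires' label is carried by female embryos and not by male ones. In pools of whole embryos, fewer cells of a type and less RNA per cell cannot be told apart.

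Heat shock proteins and chaperones bind proteins that are not yet folded or have lost their fold. Small heat shock proteins hold such clients without using ATP, J-domain proteins pass clients to Hsp70, Hsp110 proteins exchange the nucleotide of Hsp70, and chaperonins enclose clients in a barrel. Many of these genes are transcribed constitutively in all cells, and some respond to heat shock factors, which bind repeated GAA units called heat shock elements; early mouse embryos are known for transcribing inducible Hsp70 genes at the onset of zygotic transcription.

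Each value below is a log2 ratio of female over male RNA, taken from deposited log10 ratios, read as Cy5 over Cy3, with the sign turned where female RNA was in Cy3. The value of a preparation is the mean of its 2 arrays, in which a dye effect cancels. The sources used here do not state the direction of the ratio, so the preparations were compared on sex-specific genes. Xist, the RNA of the inactive X chromosome, stood at 2.25 and 2.09 in preparations 1 and 2 and at -1.55 in the preparation labelled 3, while the Y-linked Eif2s3y stood at -1.75, -1.76 and 1.93. A further Y-linked gene, Kdm5d, stood at 0.026, -0.13 and 0.069 and did not separate the preparations. The reading as Cy5 over Cy3 was the one under which Xist and Eif2s3y match the labels in preparations 1 and 2, so these genes are no independent check of it; the preparation labelled 3 then runs opposite to its labels. Under the reverse reading only the preparation labelled 3 would match, and every ratio below would change sign. Under both readings it opposed preparations 1 and 2 on these genes. The test was run with the labels kept and with the sign of that preparation turned, and directions are read first from preparations 1 and 2. The array labelled 3 with female RNA in Cy5 also stood apart, with an SD over all features of 0.594 against 0.967 to 1.09 on the other arrays. Signal intensities were not analysed, so whether a chaperone or a blastocyst marker was expressed cannot be read from these ratios.

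Among the 50 genes, the small heat shock genes Hspb1 and Hspb8 and the Hsp110 gene Hsph1 stood at 0.25 to 0.41 in preparations 1 and 2 and at -0.17 to -0.50 in the preparation labelled 3. With the labels kept, limma on the 3 preparation means called none of the 50 genes at an adjusted p of 0.05, with a background of 0% of all 18606 rows. At an unadjusted p under 0.05 it listed 484 rows and 1 of the 50 genes, Dnaja2. With the preparation labelled 3 turned, it again called 0 of the 50 genes against a background of 0%, and 6 of them had an unadjusted p under 0.05, as did 1356 rows. The 6-array limma fit with that preparation turned, the preparation as a replicate block and a dye term called 1 of the 50 genes, Hspb8, and 0.21% of all rows (39). It called 26 of the 8973 named genes, and 3 of the 8628 named genes placed on autosomes. In that fit 7 of the 50 genes had an unadjusted p under 0.05, as did 1682 rows. That fit takes its error from arrays that share RNA in pairs.

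**Figure D1:**
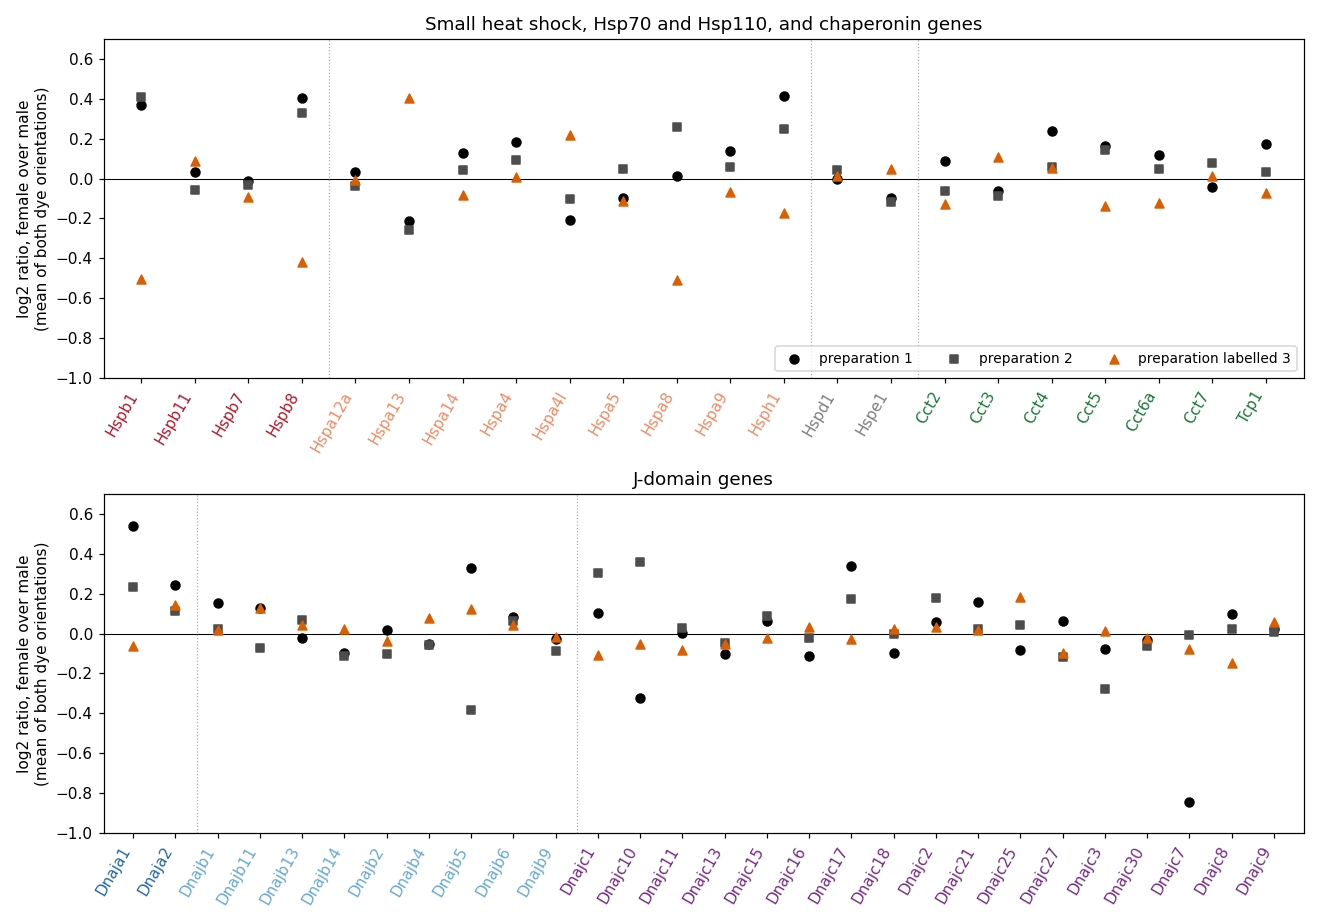
Log2 ratio of female over male RNA of each of the 50 genes (y axis) in preparation 1 (circles), preparation 2 (squares) and the preparation labelled 3 (triangles), by family along the x axis. Each point is the mean of 2 arrays of opposite dye orientation; Hspb1, Hspb8 and Hsph1 lie between 0.25 and 0.41 in preparations 1 and 2 and between -0.17 and -0.50 in the preparation labelled 3.

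Hspb1 encodes a small heat shock protein that also acts on actin filaments. In preparation 1 its ratio was -0.07 with female RNA in Cy5 and 0.80 with female RNA in Cy3; in preparation 2 it was 0.28 and 0.54, and in the preparation labelled 3 it was -0.70 and -0.30. Of the 4 arrays of preparations 1 and 2, the first was thus the only one below 0, and both arrays labelled 3 lay below 0. The preparation means were 0.37, 0.41 and -0.50, and with the last turned the mean was 0.43 ± 0.068 (SD, n = 3), a 1.34-fold ratio. Its limma adjusted p was 0.553 over the preparation means and 0.136 in the 6-array fit with the block.

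Hspb8 encodes a small heat shock protein that works with the cochaperone Bag3 in selective autophagy. Its arrays read 0.24 and 0.56 in preparation 1, 0.23 and 0.42 in preparation 2, and -0.57 and -0.27 in the preparation labelled 3, with female RNA in Cy5 given first. All 4 arrays of preparations 1 and 2 lay above 0 and both arrays labelled 3 below it, a sign pattern found in 3.24% of all named genes. The turned mean was 0.38 ± 0.048 (SD, n = 3), a 1.30-fold ratio with a limma interval of 0.25 to 0.52 at 95%. The limma adjusted p was 0.553 over preparation means and 0.0438 in the 6-array fit with the block, where Hspb8 ranked among the 39 called rows. That call was lost when arrays were scaled to a common spread (adjusted p = 0.0593), and limma gave an adjusted p of 0.726, 0.313 and 0.792 without preparation 1, 2 and 3.

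The other small heat shock genes did not share this pattern. Hspb7, known from heart and skeletal muscle, stood at -0.014, -0.030 and -0.092 in preparations 1, 2 and labelled 3. Hspb11, better known as a subunit of the intraflagellar transport complex, stood at 0.032, -0.059 and 0.087. The median of the 4 small heat shock genes was 0.20, 0.15 and -0.25 in the same order, against 0.0083, 0 and -0.0027 for all named genes, and it rests on Hspb1 and Hspb8.

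Hsph1 encodes the Hsp110 protein that serves as nucleotide exchange factor of cytosolic Hsp70. The arrays read 0.31 and 0.51 in preparation 1, 0.30 and 0.20 in preparation 2, and -0.25 and -0.10 in the preparation labelled 3. As with Hspb8, the 4 arrays of preparations 1 and 2 lay above 0 and both arrays labelled 3 below it. The turned mean was 0.28 ± 0.12 (SD, n = 3), a 1.21-fold ratio, with a limma adjusted p of 0.643 over preparation means and 0.236 in the fit with the block.

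**Figure D2:**
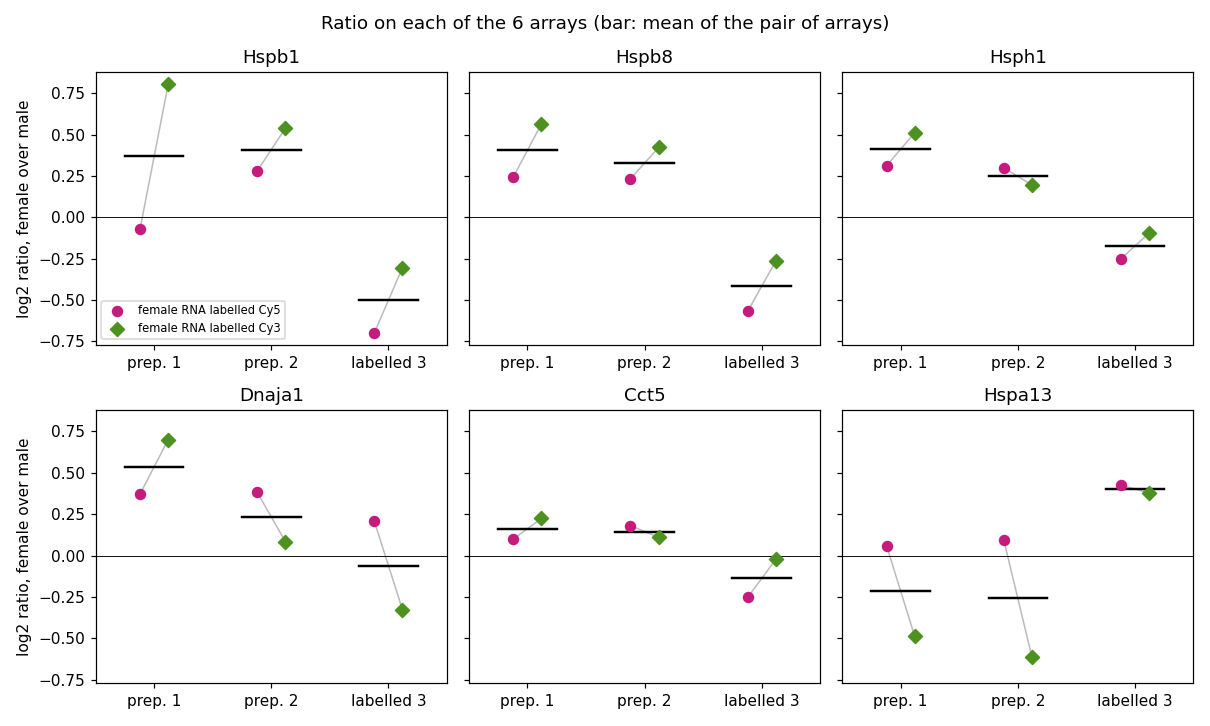
Log2 ratio of female over male RNA on each of the 6 arrays for Hspb1, Hspb8, Hsph1, Dnaja1, Cct5 and Hspa13 (y axis), by preparation (x axis); circles are arrays with female RNA in Cy5, diamonds arrays with female RNA in Cy3, and bars the mean of both. For Hspb8, Hsph1 and Cct5 both orientations lie above 0 in preparations 1 and 2 and below 0 in the preparation labelled 3, while Hspb1 reads -0.07 on 1 array of preparation 1.

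The start regions of these genes are shown so that the leading ratios can be read beside heat shock elements; these genes were picked for their ratios, and no link between the elements and the ratios was tested. The windows hold 250 bases before and 50 after the annotated start, 5′ to 3′ on the gene's own strand, from RefSeq on GRCm38.p6. Capitals mark paired units, written GAANNTTC head to head or TTCNNGAA tail to tail, each of which reads the same way on both strands. Hspb1 and Hspb8 are the small heat shock genes with the largest ratios, Hsph1, Dnaja1 and Cct5 are leading Hsp110, J-domain and chaperonin genes, and Hspe1 is shown as a gene dense in elements whose ratios were below 0 in preparations 1 and 2.
Hspb1, chr5:135887669-135887968, plus strand: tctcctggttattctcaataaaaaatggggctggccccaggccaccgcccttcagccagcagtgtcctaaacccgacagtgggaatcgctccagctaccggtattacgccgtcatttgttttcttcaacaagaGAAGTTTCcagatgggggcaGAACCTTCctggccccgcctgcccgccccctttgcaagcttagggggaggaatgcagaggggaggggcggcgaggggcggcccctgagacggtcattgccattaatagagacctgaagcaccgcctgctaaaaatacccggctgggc
Hspb8, chr5:116422815-116423114, minus strand: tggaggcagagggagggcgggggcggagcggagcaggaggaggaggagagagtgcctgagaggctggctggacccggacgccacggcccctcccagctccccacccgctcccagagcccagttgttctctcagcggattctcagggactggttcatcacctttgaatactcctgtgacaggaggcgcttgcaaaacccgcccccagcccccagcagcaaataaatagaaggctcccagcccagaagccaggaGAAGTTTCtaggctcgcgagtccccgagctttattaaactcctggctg
Hsph1, chr5:149636287-149636586, minus strand, the first of its annotated starts: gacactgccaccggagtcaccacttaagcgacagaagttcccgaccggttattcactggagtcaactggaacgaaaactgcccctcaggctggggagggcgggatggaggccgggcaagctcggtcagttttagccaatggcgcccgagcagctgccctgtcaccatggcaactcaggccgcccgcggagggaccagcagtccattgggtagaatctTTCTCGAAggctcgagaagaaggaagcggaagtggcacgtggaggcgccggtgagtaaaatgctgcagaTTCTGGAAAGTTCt
Dnaja1, chr4:40722218-40722517, plus strand, the first of its annotated starts: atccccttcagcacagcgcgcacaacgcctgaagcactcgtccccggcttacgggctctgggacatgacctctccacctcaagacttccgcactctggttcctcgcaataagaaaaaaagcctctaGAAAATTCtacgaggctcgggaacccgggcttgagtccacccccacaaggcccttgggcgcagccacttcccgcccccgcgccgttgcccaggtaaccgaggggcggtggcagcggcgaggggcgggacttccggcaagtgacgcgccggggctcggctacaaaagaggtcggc
Cct5, chr15:31601797-31602096, minus strand, the first of its annotated starts: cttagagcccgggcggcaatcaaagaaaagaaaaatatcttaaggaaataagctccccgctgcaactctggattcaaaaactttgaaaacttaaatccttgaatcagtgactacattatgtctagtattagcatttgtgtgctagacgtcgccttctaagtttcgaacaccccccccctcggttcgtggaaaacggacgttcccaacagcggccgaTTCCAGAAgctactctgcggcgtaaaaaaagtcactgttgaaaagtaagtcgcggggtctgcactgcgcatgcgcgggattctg
Hspe1, chr1:55087898-55088197, plus strand: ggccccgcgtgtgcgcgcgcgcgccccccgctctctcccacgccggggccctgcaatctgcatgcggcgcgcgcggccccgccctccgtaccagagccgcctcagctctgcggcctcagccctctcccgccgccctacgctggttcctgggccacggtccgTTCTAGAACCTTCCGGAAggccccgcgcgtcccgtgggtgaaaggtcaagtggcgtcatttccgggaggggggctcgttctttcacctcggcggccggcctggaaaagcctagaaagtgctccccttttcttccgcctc

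Hspb1 held head-to-head pairs starting at -117 and -97 from its start, and Hspb8 held 1 pair starting at base 3 after its start. The letters of the pair at -117 of Hspb1 and of the pair of Hspb8 are the same, GAAGTTTC. Hsph1 held a tail-to-tail pair at -33 and overlapping pairs at 37 and 42, all also present in the window of its second start. Dnaja1 held a head-to-head pair at -124 of its first start, while the windows of its other 2 starts held none. Cct5 held a tail-to-tail pair at -34 of its first start and none in its second window. Hspe1 held 3 overlapping pairs from -89 to -79, and its window shares 285 bases with the second window of its neighbour Hspd1, which is read from the other strand.

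RefSeq windows were matched by symbol for 42 of the 50 genes, 56 windows in all. The head-to-head pair occurred in 11 of these 56 windows (19.6%) from 9 genes, against 7.86% of all 32851 windows. The tail-to-tail pair occurred in 10 windows (17.9%) from 8 genes, against 8.52%. The 3-unit form GAANNTTCNNGAA, searched on both strands and containing 1 of each pair, occurred in 6 windows (10.7%) from Dnajb6, Hspd1, Hspe1 and Hsph1, against 0.603%. The letters CCAAT occurred in 21 windows (37.5%), against 37.4% of all windows, and the endoplasmic reticulum stress element, CCAAT followed by a CCACG unit after 9 bases on either strand, in those of Hspa5 and Dnajc3, against 0.119%. The ratios of Hspd1 and Hspe1, the pair with 2 overlapping 3-unit elements, are given below. Windows were counted as annotated, so the same bases can count more than once. The 2 windows of Hsph1 hold the same elements, as do those of Hspe1 and the second of Hspd1. A match describes letters in a window and says nothing on binding in blastocysts.

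The other Hsp70 and Hsp110 genes were mixed in sign. Hspa4, an Hsp110 protein, stood at 0.18, 0.093 and 0.0093 in preparations 1, 2 and labelled 3, and was above 0 on all 4 arrays of preparations 1 and 2. Its relative Hspa4l stood at -0.21, -0.10 and 0.22, but its 2 probes disagreed over preparations 1 and 2, at -0.37 and 0.061. The constitutive cytosolic Hsp70 gene Hspa8 stood at 0.012, 0.26 and -0.51, so its preparations differed by more than its mean. Its 2 probes had means of 0.25 and 0.021 over preparations 1 and 2. The first read 0.26, 0.24 and -0.13 in preparations 1, 2 and labelled 3, and the second -0.23, 0.28 and -0.88.

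The Hsp70 genes of organelles pointed in different directions. Hspa13, an Hsp70-like protein of microsomes, had the lowest ratio of the family. With female RNA in Cy5 its arrays read 0.06, 0.10 and 0.43 in preparations 1, 2 and labelled 3, and with female RNA in Cy3 they read -0.49, -0.61 and 0.38. The orientations of preparations 1 and 2 thus had opposite signs while both arrays labelled 3 were above 0. Its turned mean was -0.29 ± 0.098 (SD, n = 3), a ratio of 0.817, with a limma adjusted p of 0.629 over preparation means and 0.292 with the block. Hspa5, the BiP chaperone of the endoplasmic reticulum, stood at -0.10, 0.047 and -0.11 over 3 probes that did not share a sign. Hspa9, the mitochondrial Hsp70, was above 0 on all 4 arrays of preparations 1 and 2 and below 0 on both labelled 3, with means of 0.14, 0.060 and -0.066. The ribosome-associated Hspa14 stood at 0.13, 0.043 and -0.081, and the divergent Hspa12a at 0.035, -0.038 and -0.0061. As a family the 9 genes had medians of 0.035, 0.047 and -0.066, and 5 of 9 had a positive mean over preparations 1 and 2.

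Neither mitochondrial chaperonin gene was called by limma, on preparation means or with the block. Hspd1, the barrel subunit Hsp60, stood at -0.0040, 0.041 and 0.012 in preparations 1, 2 and labelled 3, with a limma interval of -0.11 to 0.13 for the turned mean. Hspe1, its lid Hsp10, stood at -0.095, -0.12 and 0.047, with an interval of -0.21 to 0.039. Neither gene had 1 sign on all 4 arrays of preparations 1 and 2.

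The subunits of the cytosolic chaperonin, which folds actin and tubulin, were slightly above 0: 6 of 7 had a positive mean over preparations 1 and 2, against 52.8% of all named genes. Their medians were 0.12, 0.050 and -0.074 in preparations 1, 2 and labelled 3. Of the 7 subunits, Cct5 differed least between preparations 1 and 2. Its arrays read 0.10 and 0.22 in preparation 1, 0.18 and 0.11 in preparation 2, and -0.25 and -0.02 in the preparation labelled 3. All 4 arrays of preparations 1 and 2 thus lay above 0, and both of the preparation labelled 3 below it. With the latter turned its mean was 0.15 ± 0.012 (SD, n = 3), a 1.11-fold ratio, which did not pass limma (adjusted p = 0.650 over preparation means and 0.316 with the block). With labels kept its SD over preparations, 0.17, was the largest of the 7 subunits.

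Of the remaining subunits, Cct4 stood at 0.24, 0.059 and 0.054, Cct6a at 0.12, 0.050 and -0.12, and Tcp1, the first subunit named, at 0.17, 0.031 and -0.074. Cct2 stood at 0.088, -0.063 and -0.13 and Cct7 at -0.040, 0.080 and 0.014. Cct3 had the only negative mean over preparations 1 and 2, -0.075, but its 2 probes read -0.28 and 0.13 there. The 7 measured subunits belong to a single complex, and their turned means ran from -0.087 to 0.15.

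Of the J-domain genes, the type A genes Dnaja1 and Dnaja2, cochaperones of cytosolic Hsp70, had medians of 0.39, 0.17 and 0.041 in preparations 1, 2 and labelled 3, the highest of the families in preparations 1 and 2. Dnaja1 read 0.37 and 0.70 in preparation 1, 0.38 and 0.08 in preparation 2, and 0.21 and -0.33 in the preparation labelled 3. Its 4 arrays of preparations 1 and 2 were above 0, while the arrays labelled 3 lay on both sides of 0. The turned mean was 0.28 ± 0.24 (SD, n = 3), with a limma adjusted p of 0.695. Dnaja2 was above 0 on all 6 arrays as labelled, from 0.086 to 0.32, with preparation means of 0.24, 0.11 and 0.14 (0.17 ± 0.070 with labels kept, SD, n = 3, limma unadjusted p = 0.0490 and adjusted p = 1). With the preparation labelled 3 turned it stood at 0.071 ± 0.20 (limma adjusted p = 0.859).

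J-domain genes of types B and C lay near 0 as groups. The medians of the 9 type B genes were 0.017, -0.074 and 0.043 in preparations 1, 2 and labelled 3, and those of the 17 type C genes 0.0013, 0.024 and -0.024. Dnajc2, which sits with Hspa14 on the ribosome, stood at 0.057, 0.18 and 0.035, and Dnajc21, a factor of ribosome maturation, at 0.16, 0.025 and 0.019; both were above 0 on all 4 arrays of preparations 1 and 2. Dnajc17 stood at 0.34, 0.17 and -0.029, and Dnajc1, a membrane protein of the endoplasmic reticulum, at 0.10, 0.30 and -0.11. Dnajc9, a histone chaperone, and Dnajc11, a mitochondrial membrane protein, were nearest to 0 over preparations 1 and 2, both at 0.014.

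Some J-domain genes differed between preparations by more than any mean in the family. Dnajc7, a cochaperone with tetratricopeptide repeats that was singled out after its values were seen, stood at -0.85, -0.0051 and -0.079, and its arrays of preparation 1 read -1.02 and -0.67. Dnajc10, a disulfide reductase of the endoplasmic reticulum, stood at -0.32, 0.36 and -0.050. Neither value of preparation 1 was repeated in preparation 2.

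The Hsp90 genes, compared as a list, were slightly above 0 in preparations 1 and 2 and below 0 in the preparation labelled 3. Hsp90aa1, the inducible cytosolic form, stood at 0.16, 0.063 and -0.094 and the mitochondrial Trap1 at 0.14, 0.099 and -0.083. Hsp90b1 of the endoplasmic reticulum stood at -0.0058, 0.064 and -0.23. With the last preparation turned their means were 0.11, 0.11 and 0.097, and their limma adjusted p lay between 0.641 and 0.753 in the fit with the block.

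Counts of signs over arrays were read against the same counts over all named genes. Of the 50 genes, 9 were above 0 on all 4 arrays of preparations 1 and 2 (Hspb8, Hspa4, Hspa9, Hsph1, Cct5, Dnaja1, Dnaja2, Dnajc2 and Dnajc21), where the background is 6.14%. None was below 0 on all 4, where the background is 5.85%. Of the 9, the 4 genes Hspb8, Hspa9, Hsph1 and Cct5 were also below 0 on both arrays labelled 3, against a background of 3.24%, and 0 of 50 showed the mirror image of that pattern, against 3.2%. These backgrounds include sex-linked genes. Of the 8628 named genes placed on autosomes, 462 were above 0 and 515 below 0 on all 4 arrays. Of these, 216 and 282 had the opposite sign on both arrays labelled 3. Preparations 1 and 2 had the same sign in 37 of 50 genes (74%), against 55.7% of all named genes.

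Agreement between preparations was described by correlations and signs. Across the 22 genes outside the J-domain families, preparations 1 and 2 had a Pearson's r of 0.793, and each correlated with the preparation labelled 3 at -0.651 and -0.888. Without Hspb1, Hspb8 and Hsph1, the remaining 19 genes gave 0.592, -0.454 and -0.831. Across the 28 J-domain genes the same values were 0.053, 0.168 and -0.271, and across all named genes 0.041, -0.359 and 0.017. By rank, preparations 1 and 2 had a Spearman's rho of 0.259 over the J-domain genes, 0.712 over the others and 0.135 over all named genes. Of the 28 J-domain genes, 21 (75%) had the same sign in both. The difference between the groups was not tested. These are correlations across genes, which are not independent replicates, of ratios from separate RNA pools measured with the same probes.

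**Figure D3:**
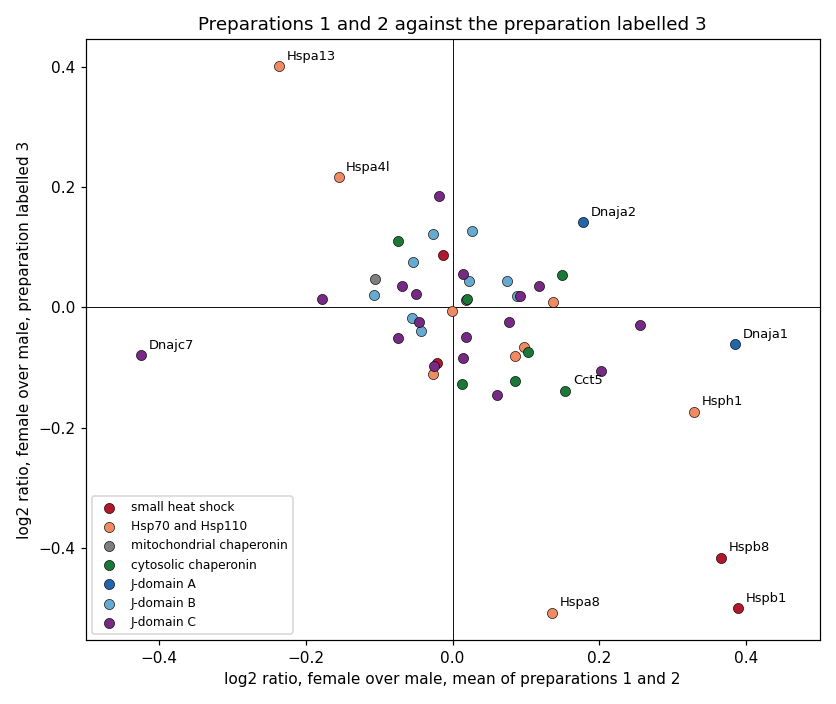
Mean log2 ratio of female over male RNA over preparations 1 and 2 (x axis) against the ratio in the preparation labelled 3 (y axis) for each of the 50 genes, coloured by family. Hspb1, Hspb8 and Hsph1 lie at the lower right and Hspa13 and Hspa4l at the upper left, while most J-domain genes lie near 0.

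The dye effect was measured as the mean of Cy5 over Cy3 over both orientations, and it cancels in the preparation means above. It exceeded the ratio of preparations 1 and 2 in size in 29 of 50 genes (58%), against 65.1% of all named genes. limma on the 3 preparation means called 0 of the 50 genes for it against a background of 0%, with 14 genes and 4952 rows at an unadjusted p under 0.05. The 6-array limma fit with the replicate block called 5 (Dnajb14, Dnajb4, Dnajb9, Hspa14 and Hspb7), where the background is 12.1% (2250 rows). In that fit 15 of the 50 genes had an unadjusted p under 0.05, as did 5889 of the 18606 rows.

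The dye effect had one direction in most type B genes. Of the 9, 8 had a mean above 0 and 5 were above 0 on all 6 arrays, and their median was 0.15 against 0.0064 for all named genes. Dnajb14 had the largest, 0.49 ± 0.20 (SD, n = 3, adjusted p = 0.0255 by limma with the block). Dnajb9, an ER cochaperone of Hspa5, stood at 0.27 ± 0.030 (limma adjusted p = 0.0193), and Dnajb4, a cytosolic cochaperone, at 0.23 ± 0.042 (limma adjusted p = 0.0417). Their sex ratios over preparations 1 and 2 were -0.11, -0.056 and -0.055, each smaller than the dye effect of the same probe. Over all 50 genes, 7 had Cy5 above Cy3 on all 6 arrays against a background of 12.2%, and 6 had Cy3 above Cy5 on all 6 against 10.7%.

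Among other families the dye effect was of either sign. Hspb7 stood at 0.20 ± 0.048 (limma adjusted p = 0.0414 with the block) and Hspa14 at -0.29 ± 0.10 (limma adjusted p = 0.0455). Dnajc10 (-0.39 ± 0.10), Dnajc1 (-0.37 ± 0.063) and Dnajc17 (0.32 ± 0.039) did not pass, with limma adjusted p of 0.120, 0.0502 and 0.0576. For the leading sex ratios the dye effects were -0.25 ± 0.16 in Hspb1, -0.14 ± 0.036 in Hspb8 and -0.042 ± 0.082 in Hsph1. The dye effect repeated across preparations with r between 0.648 and 0.664 over the 50 genes, against 0.432 to 0.554 over all named genes.

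**Figure D4:**
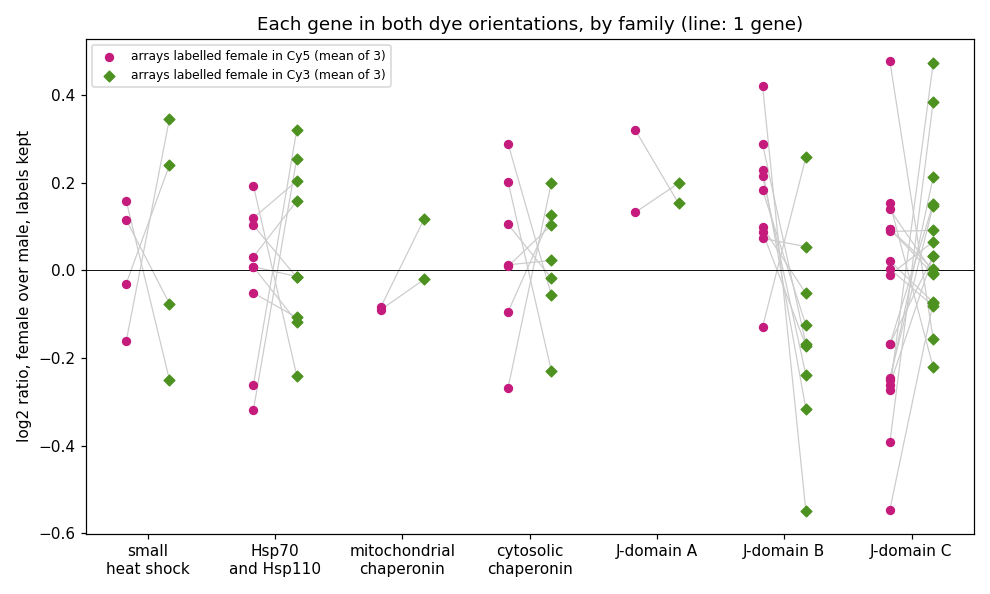
Mean log2 ratio of female over male RNA of each gene over the 3 arrays with female RNA in Cy5 (circles) and the 3 with female RNA in Cy3 (diamonds), labels kept, by family (x axis); a line joins the 2 values of 1 gene. In type B J-domain genes 8 of 9 lines fall from left to right, which is a dye effect above 0.

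Genes that act with the chaperones were read from lists, with the preparation labelled 3 turned and the block in the limma fit. In the list of heat shock factors and cochaperones, Hsf5 was the only heat shock factor measured. Hsf1, Hsf2, Hsf3 and Hsf4 were without a single-symbol probe. Of the 24 genes measured of 34 listed, none passed (background 0.21%). An unadjusted p under 0.05 was found for 4 of them, and for 1682 of all 18606 rows in that fit. The latter is the background for such counts in the lists below. On the preparation means limma called 0 as well. The list's median was 0.013, -0.012 and -0.059 in preparations 1, 2 and labelled 3. Of its genes with 1 sign on all 4 arrays of preparations 1 and 2, Tomm70a, an import receptor that docks Hsp70 and Hsp90, stood at 0.25, 0.093 and -0.060. Bag1, an Hsp70 exchange factor, stood at 0.17, 0.13 and -0.062, and Sugt1, an Hsp90 cochaperone, at 0.18, 0.091 and -0.068. The fourth such gene, Bag6, pointed the other way at -0.12, -0.088 and 0.050, and was the only one of them with the opposite sign on both arrays labelled 3.

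Endoplasmic reticulum folding and unfolded protein response genes, 26 measured of 30 listed and 6 of them among the 50 above, had medians of -0.015, 0.067 and -0.0018. None passed, 7 had an unadjusted p under 0.05, and Ppp1r15b, a regulatory subunit of the phosphatase that reverses eIF2 phosphorylation, stood highest among genes of 1 sign at 0.30, 0.25 and -0.28. Creld2, an ER protein of the same response, stood at 0.14, 0.15 and -0.097. In the list of prefoldin subunits, tubulin cofactors and chaperonin regulators, 12 measured of 14, the median was 0.050, 0.012 and 0.015. Its X-linked prefoldin subunit Vbp1 was the 1 gene that passed, at 0.66, 0.48 and -0.52 (limma adjusted p = 0.0309, and 0.536 over preparation means), and Txndc9, which inhibits the cytosolic chaperonin, stood at 0.27, 0.12 and -0.11.

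Mitochondrial import and proteostasis genes, 15 measured of 18 with 4 among the 50, had medians of 0.058, 0.041 and -0.012, and none passed, with 2 at an unadjusted p under 0.05. Clpx, the unfoldase of a matrix protease, stood at 0.11, 0.059 and -0.037. Of 13 oxidative and metal stress genes, with medians of -0.037, -0.080 and 0.031, 1 passed: the metallothionein gene Mt1 at -0.42, -0.45 and 0.40 (limma adjusted p = 0.0385, and 0.529 over preparation means). Mt2 stood at -0.58, -0.44 and 0.34 (adjusted p = 0.144 by limma) and the thioredoxin reductase gene Txnrd1 at -0.23, -0.16 and 0.40 (adjusted p = 0.313 by limma). These 3 lay on the male-higher side in preparations 1 and 2, opposite to Hspb1, Hspb8 and Hsph1.

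Cell type markers are given beside these ratios, and their part in them was not tested. The inner cell mass list, 7 measured of 8, had medians of 0.15, 0.11 and -0.11 in preparations 1, 2 and labelled 3. Medians of all 50 genes (0.033, 0.026 and -0.012) had the same signs. So did those of the small heat shock, the Hsp70 and Hsp110, the cytosolic chaperonin and the type C J-domain genes. The Hsp90 list and the mitochondrial import and proteostasis list had these signs as well. Medians of the mitochondrial chaperonin and of the type A and type B J-domain genes did not. Over all named genes the medians were 0.0083, 0 and -0.0027. Of the 7 inner cell mass genes, 5 had a positive mean over preparations 1 and 2, and Nanog passed (limma adjusted p = 0.0393, and 0.536 over preparation means). The trophectoderm list, 9 of 10, had medians of -0.097, 0.13 and -0.038, and the primitive endoderm list, 7 of 8, had medians of 0.17, -0.030 and -0.049. Cumulus and granulosa genes, 4 of 8, stood at 0.051, -0.17 and -0.13 and oviduct genes, 2 of 5, at -0.12, 0.0023 and -0.0081. No gene of the last 4 lists passed that limma fit. An unadjusted p under 0.05 in it was reached by 3 inner cell mass and 5 trophectoderm genes, and by 1682 of all 18606 rows.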

How the data were processed

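The deposited values, read here as log10 because they end at exactly -2 and 2, were made by the authors with Feature Extraction and Luminator, per the design text of the series. Base, direction and centring are not given in the sources used here. Ratios were read as Cy5 over Cy3, the reading under which Xist and Eif2s3y of preparations 1 and 2 fit their labels. They were multiplied by 3.322 to give log2. Probes with 1 symbol in the platform annotation were averaged by gene, which left 18606 rows, 9633 of them unnamed; 2 probes that carry a member symbol beside another were left out.

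Both orientations of a preparation used the same RNA, and their mean was 1 replicate. Replicate numbers thus pair arrays of the same extracts, as the labels name them. limma 3.58.1 in R 4.3.3 (lmFit, eBayes) tested the 3 preparation means against 0 over all rows with Benjamini-Hochberg adjustment at 0.05. A 6-array fit used the preparation as replicate block with a dye term (estimated correlation 0.0293 with labels kept, 0.145 with the preparation labelled 3 turned, the latter kept where a preparation was left out). Preparations were independent per the series' design text. The number of arrays limits the precision, and depth is unknown.

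Members, gene lists and alternatives were chosen with earlier results of these data known. The text could name all genes of families with up to 15 members and the Hsp90 list; J-domain genes with 1 sign on all 4 arrays of preparations 1 and 2, the 5 with the largest dye effects and the 3 nearest 0; members called or with probes that differ in sign; and, of the lists, genes called and the 3 largest of 1 sign. Dnajc3, Dnajc7, Dnajc8, Dnajc16, Dnajc30, Dnajb1, Dnajb11, Dnajb13, Bag6 and Nanog were named after their values were seen. Alternatives were single dye orientations, leaving out each preparation, centring, scaling, exact zeros as missing, probe medians and named genes only.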

Additional observations from a re-analysis of the deposited data

Results flagged for a closer look

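In 13 of the 50 genes, all 3 arrays with female RNA in Cy5 and all 3 with female RNA in Cy3 gave female over male ratios of opposite sign as labelled, which is what a dye effect of a single direction gives. Values below are mean dye effects, Cy5 over Cy3 on the log2 scale. The J-domain genes above 0 were Dnajb14 (0.49), Dnajb9 (0.27), Dnajb4 (0.23), Dnajb11 (0.23), Dnajb13 (0.15) and Dnajc16 (0.19), and those below 0 were Dnajc1 (-0.37), Dnajc11 (-0.23), Dnajb1 (-0.19) and Dnajc8 (-0.16). Outside that group, the small heat shock gene Hspb7 stood at 0.20, Hspa14 at -0.29 and the chaperonin subunit Cct2 at -0.23. The limma fit with the replicate block called 5 of these genes, and for the other genes the difference between orientations did not pass a test. Cy5 was above Cy3 on all 6 arrays in 7 of the 50 genes and below it in 6. Over all named genes these shares were 12.2% and 10.7%, and that limma fit called 12.1% of all rows. The counts in the 50 genes were near these shares and do not set these genes apart.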

How the results depend on the processing

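With labels kept, limma called 0 of the 50 genes for sex under every alternative run on these labels, including the replicate block with dye term. Over all rows these fits also called 0, except with female RNA in Cy3 alone, where 628 of 18606 rows were called. With the preparation labelled 3 turned, the replicate block and dye term gave 1 (Hspb8), and that fit also gave 1 with arrays centred and with zeros missing, both added after seeing the data; it gave 0 with arrays scaled or without any 1 preparation. Over all rows that fit called 39 with arrays centred, 39 with zeros missing and 38 with arrays scaled. For the dye effect the replicate block gave 5 in place of 0, and 2250 of all rows. The dye fits with arrays centred, arrays scaled and zeros missing called 446, 828 and 557 rows, and 0 of the 50 genes. The median sex ratio of the Hsp70 and Hsp110 genes, -0.0029 with labels kept, was 0.084 with the preparation turned, with or without the block; 0.062 and 0.086 turned without replicate 1 and 2; and -0.0028 to 0.085 over labelled fits without a replicate. In single orientations, medians with female RNA in Cy5 and in Cy3 were -0.087 and 0.048 for the mitochondrial chaperonin and 0.18 and -0.17 for type B J-domain genes, and the type C median was 0.033 with female RNA in Cy3. Leaving out a replicate moved dye medians of Hsp70 genes between -0.059 and 0.016 and of type C genes between -0.048 and 0.0017. Centring, scaling, zeros as missing and named genes only moved no family median by more than the spread between preparations. The cause of these shifts was not tested. Without signals, which were not analysed here, no filter on dim or saturated probes was possible.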

Other observations

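The 50 genes lie on 18 autosomes, and Hspb1, Hspb8 and Hsph1 all lie on chromosome 5. That chromosome holds 7 of the 50 genes (14%), against 6.11% of all named genes, and the medians of its 548 named genes were 0.0098, -0.010 and -0.0095 in preparations 1, 2 and labelled 3. Chromosome 4 holds 8 (16%, against 6.2%), Dnaja1 among them. The other members on chromosome 5 were Cct6a, Dnajb6, Dnajc2 and Dnajc30, and the last stood at -0.033, -0.060 and -0.024.

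Probes of the same gene did not always share a direction. Of the 13 genes with several probes, 7 had probes of opposite sign in the mean of preparations 1 and 2, and 8 had probes of opposite dye effect. Cct3 differed most in dye effect, with 0.75 on 1 probe and -0.32 on the other. Dnajb6, a suppressor of protein aggregation, had probe means of -0.045 and 0.19, and Dnajc27, which joins a Rab-like domain to a J domain, had -0.11 and 0.060.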
